A study of Mus musculus with 16 samples.

Results

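The genes of MHC class I presentation and of the interferon response were followed in hippocampal RNA from 16 mice. They were taken from a list of 33 gene names, and each gene was read from 1 microarray probe set, the one with the highest mean over the 16 arrays among those that the platform annotation assigns to a single gene symbol. Of the 33 genes, 31 had such a probe set, among 18193 genes that had one on the array, and 24 lay above the filter on low values (a mean of 3.58 log2 units, the 40th percentile of all probe sets), among 12266 genes tested. H2-T23 and Isg15 were covered here by probe sets of several genes alone and have no values here.

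All 16 animals were female 3xTg-AD mice aged 14 months, an Alzheimer's disease model in which neurons express transgenes of mutant human APP and tau beside a mutant presenilin allele. From 10 months of age, 8 animals (numbered 1 to 8) ate a control diet and 8 animals (numbered 9 to 16) ate a diet with 84 ppm pioglitazone (PIO) over roughly 14 weeks, which came to some 18 mg per kg daily. The drug, a thiazolidinedione, activates the nuclear receptor PPAR gamma. No animals without the transgenes were among these 16 samples, so the comparison is between diets within the model.

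MHC class I molecules carry peptides from inside the cell to its surface. The heavy chain binds beta-2-microglobulin, the peptides are cut by the proteasome, pumped into the endoplasmic reticulum by the TAP transporter and loaded with the help of tapasin. Type I interferons act through the receptor chains Ifnar1 and Ifnar2 and a complex that holds Stat2 and Irf9 and binds interferon-stimulated response elements, while interferon gamma acts through Ifngr1 and raises Irf1. In brain, class I genes are found in microglia, endothelium and some neurons, and interferon-induced genes are described in microglia near amyloid.

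The deposited values were log2 levels between 0.33 and 16.6, with array medians from 5.65 to 5.76. Hippocampal neuron markers were present in every animal, and all 15 of the listed ones lay above the filter. The defining marker Neurod6 ranged from 12.56 to 13.34 and Prox1 from 7.06 to 8.77. Markers of striatal neurons were highest in PIO animals 14 and 15, where their mean lay 0.81 and 0.97 log2 units above the 16-array mean. The mean of the hippocampal neuron markers was lowest in the same animals, at -0.41 and -0.45 log2 units from the 16-array mean. Precision throughout is limited by the number of arrays. Where a level is lower in whole hippocampus, fewer cells of a type and less RNA per cell cannot be told apart.

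The core of the interferon-stimulated response element, to which the Irf9 complex binds, was searched for in the promoters of the members. The core GAAANNGAAA, searched on both strands (TTTCNNTTTC on the other), occurred within 250 bases before the start of 11 of the 29 members found in the RefSeq promoter table (GRCm38.p6), namely B2m, H2-T23, Stat2, Ifit1, Ifit3, Ifitm2, Isg15, Oas1a, Rsad2, Bst2 and Cxcl10. That is 37.9% of those members, against 3.46% of the 27025 genes in the table. The members were listed by name as class I and interferon-response genes, so a higher share follows in part from how the list was made. The gamma-activated sequence TTCNNNGAA, which reads the same on both strands, occurred in 6 members (20.7%), namely Irf1, Psmb8, Ifnar2, Ifit2, Oas1a and Bst2, against 8.13% of genes. A match describes the letters in that window and is not evidence of binding, and the absence of a match says only that these letters are not there. The stretches below come from members described in the results, on the strand of the gene from 5′ to 3′, with core matches in capitals.
B2m (chr2:122147513-122147592, plus strand): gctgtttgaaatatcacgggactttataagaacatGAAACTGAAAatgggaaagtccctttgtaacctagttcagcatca
Ifit3 (chr19:34583372-34583451, plus strand): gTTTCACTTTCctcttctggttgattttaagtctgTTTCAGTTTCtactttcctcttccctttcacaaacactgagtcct
Ifit1 (chr19:34640769-34640848, plus strand): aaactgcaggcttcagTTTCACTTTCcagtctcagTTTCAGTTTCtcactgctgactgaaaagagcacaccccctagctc
Ifitm2 (chr7:140955963-140956042, minus strand): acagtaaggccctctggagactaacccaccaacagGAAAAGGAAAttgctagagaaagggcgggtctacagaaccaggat
Cxcl10 (chr5:92349058-92349137, minus strand): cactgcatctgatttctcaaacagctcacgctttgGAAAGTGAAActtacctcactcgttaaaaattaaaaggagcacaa
The core lay 139 to 130 bases before the start in B2m, 46 to 37 in Ifitm2 and 213 to 204 in Cxcl10. Ifit3 and Ifit1 each held 2 matches that differ from each other in their letters, and the same pair occurred in both genes. They lay at 156 to 147 and 122 to 113 bases in Ifit3 and at 104 to 95 and 85 to 76 bases in Ifit1.

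The comparison of diets asked which of these genes differed with PIO. No member passed the test: 0 of 24 had an adjusted p under 0.05 (limma, Benjamini-Hochberg over all genes), and 0 of all 12266 genes did, 0%. The smallest adjusted p among the members was 0.681, for Irf9, which was also the 1 member (4.17%) with an unadjusted p under 0.05, against 859 genes (7.00%) overall. Its mean was lower with PIO, as for 386 of those genes (3.15% of all tested), while 473 (3.86%) were higher and no member was among the latter. With PIO 12 members had a lower mean and 12 a higher one, where 47.3% of all genes had a lower mean. In no member were the groups apart without overlap, as was the case for 4 genes (0.0326%) overall.

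The median difference over the 24 members, PIO minus control, was -0.00030 log2 units, and over all genes it was 0.0045. For 16 members the difference was smaller than its own SE. The 95% confidence intervals bound what these arrays allow: all 24 lay within a 2-fold change in either direction, and the farthest bound was 0.70 log2 units, for Ifitm2. The members' differences were spread more widely than those of other genes, with a median size of 0.087 against 0.050 log2 units. Their SEs were also larger, with a median of 0.098 against 0.064.

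**Figure D1:**
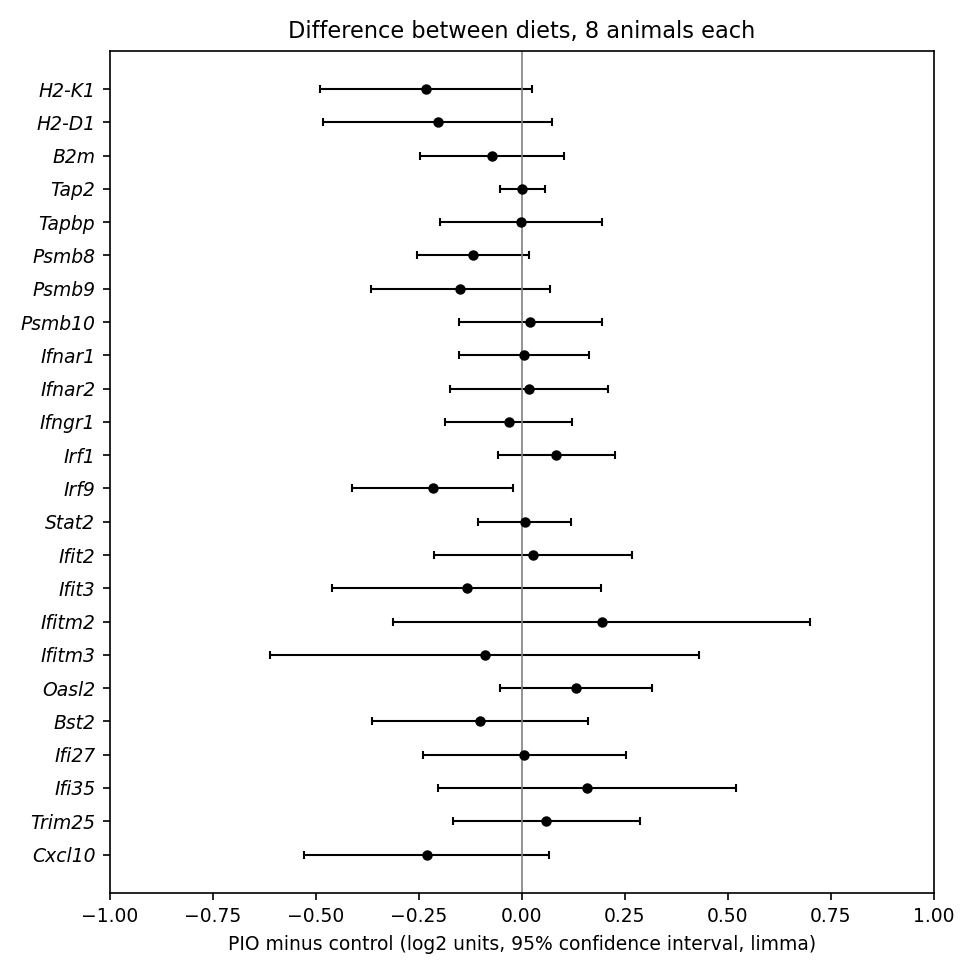
Difference between diets (PIO minus control, log2 units) for each of the 24 members above the filter, with its 95% confidence interval from limma (8 animals per diet). Of the 24 intervals only that of Irf9 leaves out 0, from -0.41 to -0.021, and it did not pass the adjusted threshold.

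The chains of the class I molecule itself were lower on average with PIO, without passing the test. H2-K1, a classical class I heavy chain, lay at 9.27 in the lowest, 9.58 in the median and 9.92 in the highest control animal, and at 8.90, 9.36 and 9.66 with PIO. The groups overlapped, but 4 of 8 PIO animals lay below the lowest control, and no PIO animal lay above the highest. The means were 9.59 ± 0.25 and 9.35 ± 0.27 (SD, n = 8 each), a difference of -0.23 (SE 0.12, 95% interval -0.49 to 0.024; limma adjusted p = 0.737), or 0.851-fold. H2-D1, the second classical heavy chain, lay at 10.39, 10.73 and 11.16 in controls and at 10.06, 10.52 and 10.97 with PIO. Here 3 PIO animals lay below the lowest control, and the difference was -0.20 (SE 0.13, 95% interval -0.48 to 0.074; limma adjusted p = 0.782).

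B2m, the light chain shared by all class I molecules, differed less. It lay at 12.24, 12.46 and 12.73 in controls and at 12.17, 12.43 and 12.60 with PIO. The difference was -0.072 (SE 0.082, 95% interval -0.25 to 0.10; limma adjusted p = 0.883). It was -0.036 without PIO animal 10, -0.038 without control animal 8 and -0.042 without control animal 3, and -0.11 without control animal 7. The same animals stood at the ends for these 3 genes: control animal 8 was the highest of 16 and PIO animal 10 the lowest in each.

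Other probe sets of these genes had the same direction. Above the filter, 3 of 3 probe sets of H2-K1, 4 of 4 of H2-D1 and 2 of 2 of B2m had a lower mean with PIO. The probe sets of both heavy chains used here may hybridise with other class I genes, since the array design marks them as sharing sequence, so the level of each heavy chain is uncertain. The H2-D1 probe set without that mark gave a larger difference of -0.33 (SE 0.13). In the arrays numbered 10 to 24 alone (4 control and 6 PIO), the differences shrank to -0.064 for H2-K1 and -0.058 for H2-D1 and turned to 0.074 for B2m. That setting leaves out control animals 1 to 4 and, of the PIO group, animals 9 and 10.

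Of the 19 microglial markers above the filter 18 lay in the same direction, lower with PIO, and 1 was higher, with a median difference of -0.20. Among them 4 had an unadjusted p under 0.05, where 7.00% of all genes did. Cx3cr1, the fractalkine receptor of microglia, differed by -0.44 (SE 0.094; limma adjusted p = 0.457) and P2ry12 by -0.13. The summed level of the list ran from 166.7 to 178.3 in controls and from 163.8 to 174.7 with PIO. The highest list means were in control animals 3 and 8, 0.41 and 0.40 log2 units above the 16-array mean. Other cell types were lower too: all 12 oligodendrocyte and myelin markers (median -0.22, 5 with an unadjusted p under 0.05) and 10 of 12 astrocyte markers (median -0.064, 3). Leptomeningeal and choroid plexus markers were mostly higher, 8 of 10 and 15 of 15, with 0 at an unadjusted p under 0.05 in either list. Their median differences were 0.20 (median SE 0.34) and 1.09 (median SE 1.04). The choroid plexus markers moved together by animal, so their 15 directions are not separate observations. The oligodendrocyte list mean was also highest in control animal 8, at 0.38. With the microglial mean as a covariate the differences were -0.14 (SE 0.13) for H2-K1, -0.11 (SE 0.14) for H2-D1 and 0.018 (SE 0.083) for B2m. Brain endothelial markers were also mostly lower, 7 of 11 (median -0.16). With their mean as a covariate the differences were -0.17 (SE 0.11), -0.12 (SE 0.12) and -0.032 (SE 0.078). The choroid plexus mean instead gave larger ones, -0.30, -0.29 and -0.13. The part of microglial, endothelial or choroid plexus content in the class I values was not tested beyond this, and that of oligodendrocytes and astrocytes was not tested.

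**Figure D2:**
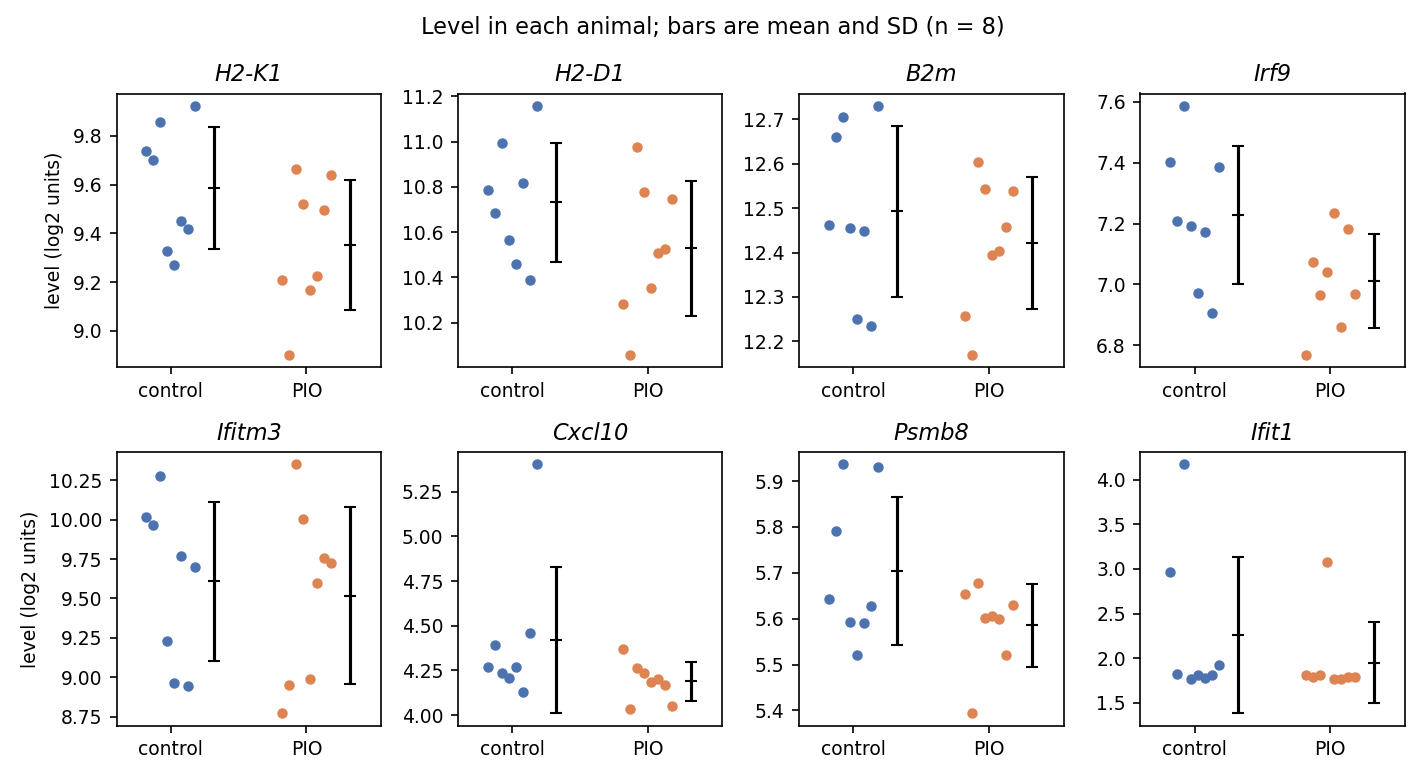
Level of 8 members in each animal (log2 units), with control animals on the left and PIO animals on the right of each panel; points are animals and bars are mean and SD (n = 8). H2-K1, H2-D1 and Irf9 sit lower with PIO but overlap, and the single high point of Cxcl10 is control animal 8 at 5.40. Ifit1 is high in control animal 3 at 4.17, PIO animal 12 at 3.08 and control animal 1 at 2.97.

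The genes that supply and load peptides differed little. Psmb8, the interferon-inducible immunoproteasome subunit, lay at 5.52, 5.63 and 5.94 in controls and at 5.39, 5.60 and 5.68 with PIO. The medians were close, and the high values belonged to control animals 3 and 8 at 5.94 and 5.93. The difference was -0.12 (SE 0.064, 95% interval -0.25 to 0.017; limma adjusted p = 0.745). Psmb9, its partner subunit, had a mean of 3.62, just inside the filter. It ran from 3.58 to 3.99 in controls and from 2.97 to 3.82 with PIO, where animal 10 alone was under 3.44. Its difference of -0.15 (SE 0.10; limma adjusted p = 0.797) became -0.066 without PIO animal 10.

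Psmb10, the third inducible subunit, differed by 0.021 (SE 0.082), with PIO animals on both sides of the control range. The constitutive subunits that these replace differed by -0.0080 for Psmb5, -0.0079 for Psmb6 and 0.025 for Psmb7. Tapbp (tapasin) lay at 8.94, 9.21 and 9.43 in controls and at 8.90, 9.31 and 9.40 with PIO, a difference of -0.0014 (SE 0.093, 95% interval -0.20 to 0.20). Tap2, a chain of the peptide transporter, was the flattest member above the filter, at 5.71 ± 0.025 and 5.72 ± 0.031 (SD, n = 8 each). Its SD between animals exceeded that of only 0.2% of 500 genes of like level. That SD, 0.028 within diet groups, was near those of Nlrc5 (0.035) and Rsad2 (0.022), which lay below the filter. Ifit1, Usp18 and Oas1a, also below it, had larger SDs. Whether this only Tap2 probe set reads Tap2 RNA above background was not tested, so its flatness may carry no information on diet. The other chain, Tap1, lay below the filter, between 2.41 and 2.58 in all 16 animals.

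On the probe sets used here, the interferon receptors had nearly equal means in both groups. Ifnar1, a chain of the type I receptor, lay at 8.25, 8.46 and 8.62 in controls and at 8.26, 8.44 and 8.70 with PIO. The difference was 0.0045 (SE 0.075, 95% interval -0.15 to 0.16), while another Ifnar1 probe set above the filter gave -0.11 (SE 0.091). Its partner Ifnar2 differed by 0.017 (SE 0.091) and Ifngr1, the ligand-binding chain of the interferon gamma receptor, by -0.032 (SE 0.073). The ranges overlapped in all 3. For Ifnar1 3 PIO animals (13, 14 and 15) lay above the highest control, for Ifnar2 2 PIO animals lay below and 1 above the control range, and for Ifngr1 all PIO animals lay within it. Of 10 listed interferon genes 6 had a single-symbol probe set and none lay above the filter, with means from 1.84 to 2.42.

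Among the regulators Irf9 had the largest difference, in the direction of a lower level with PIO. Irf9, the DNA-binding subunit of the type I interferon complex, lay at 6.91, 7.20 and 7.59 in controls and at 6.77, 7.01 and 7.24 with PIO. PIO animals 9 and 14 lay under the control range and none exceeded it, and control animals 1, 3 and 8 were above every PIO animal. The means were 7.23 ± 0.23 and 7.01 ± 0.16 (SD, n = 8 each), a difference of -0.22 (SE 0.092, 95% interval -0.41 to -0.021), or 0.861-fold, with an unadjusted p of 0.0318 and a limma adjusted p of 0.681. It was -0.067 in the arrays numbered 10 to 24 alone and -0.093 with the microglial mean as a covariate.

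Its partner and the other regulator above the filter had differences near or above 0. Stat2, which binds Irf9, lay at 7.81, 7.93 and 8.11 in controls and at 7.81, 7.97 and 8.16 with PIO. The difference was 0.0066 (SE 0.053, 95% interval -0.11 to 0.12), and another Stat2 probe set above the filter gave -0.0047 (SE 0.068). Irf1, an early target of interferon gamma, ran from 6.86 to 7.29 in controls and from 7.03 to 7.44 with PIO, a difference of 0.084 (SE 0.067). The lowest value, 6.86, was that of control animal 5, and PIO animals 11 and 12 were the highest at 7.43 and 7.44. The Irf1 difference was 0.045 without control animal 5, 0.054 without PIO animal 11 and 0.052 without PIO animal 12. Whether the difference of Irf9 differs from that of Stat2 was not tested. Irf7, the amplifier of type I interferon production, and Nlrc5, the class I transactivator, lay below the filter, at 2.39 to 2.57 and 2.04 to 2.15.

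The interferon-induced effectors carried the widest spread. Of the 10 above the filter 4 had a lower mean with PIO and 6 a higher one, with a median difference of 0.017. Ifitm3, a membrane protein that blocks virus entry, lay at 8.95, 9.73 and 10.28 in controls and at 8.77, 9.66 and 10.35 with PIO. The groups covered nearly the same range, and the difference was -0.090 (SE 0.25, 95% interval -0.61 to 0.43; limma adjusted p = 0.96). Ifitm2, from the same family, lay at 7.76, 8.44 and 8.96 in controls and at 7.49, 8.87 and 9.16 with PIO, a difference of 0.19 (SE 0.24, 95% interval -0.31 to 0.70; limma adjusted p = 0.89). Without control animal 5 the Ifitm2 difference was 0.11, without PIO animal 11 it was also 0.11, and without PIO animal 9 it was 0.35. With single animals left out, that of Ifitm3 lay between -0.21 (PIO animal 11 omitted) and 0.016 (PIO animal 9 omitted). The arrays numbered 10 to 24 alone gave 0.39 for Ifitm3 and 0.59 for Ifitm2.

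The IFIT proteins bind foreign RNA and are among the classic interferon-induced genes. Ifit3 lay at 7.32, 7.79 and 8.31 in controls and at 7.01, 7.74 and 8.09 with PIO, a difference of -0.13 (SE 0.15), and PIO animal 10 was the lowest. It was -0.037 without that animal, -0.065 without control animal 3, -0.087 without PIO animal 13 and -0.21 without control animal 7. Ifit2 lay at 7.45, 7.89 and 8.14 in controls and at 7.39, 7.97 and 8.14 with PIO, a difference of 0.027 (SE 0.11). In the arrays numbered 10 to 24 alone the Ifit2 difference was 0.31 (limma adjusted p = 0.563), and in those of the largest array code alone it was -0.16.

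Ifit1, whose promoter holds the same 2 core sequences as Ifit3, lay below the filter but not evenly. In 13 animals it was between 1.77 and 1.93, and it reached 4.17 in control animal 3, 3.08 in PIO animal 12 and 2.97 in control animal 1. Usp18, which restrains the type I receptor, reached 3.19 in PIO animal 10, 2.97 in control animal 1 and 2.72 in control animal 3, against 2.24 to 2.47 elsewhere. Oas1a, an activator of RNA decay, was highest in control animals 2 and 4 (2.67 and 2.57) and PIO animal 12 (2.38). Rsad2 (viperin) stayed between 2.44 and 2.52. These genes were not tested, and their higher animals were found in both diet groups.

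Cxcl10, the chemokine that draws T cells, lay at 4.13, 4.27 and 5.40 in controls and at 4.03, 4.19 and 4.37 with PIO. The value of 5.40 belonged to control animal 8, and the next control animal was at 4.46. The difference was -0.23 (SE 0.14, 95% interval -0.53 to 0.065; limma adjusted p = 0.763), and without control animal 8 it was -0.091. Control animal 8 was also the highest animal for H2-K1, H2-D1, B2m and Ifi27. Markers of T cells and natural killer cells were near the floor: of 10 with a probe set only Cd8a lay above the filter, and the highest level in any animal was 2.23 for Cd3e and 2.02 for Cd3d.

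The remaining effectors had small differences for their error. Oasl2, of the oligoadenylate synthetase family, ran from 3.74 to 4.46 in controls and from 4.33 to 4.51 with PIO, a difference of 0.13 (SE 0.088) that was 0.052 without control animal 5, the lowest at 3.74. Bst2 (tetherin) differed by -0.10 (SE 0.12), with control animal 2 at 5.16 and PIO animal 11 at 5.07 above the others and PIO animal 10 at 3.96 below them. It was -0.030 without control animal 2 and -0.017 without PIO animal 10, and -0.18 without PIO animal 11. Ifi35 ran from 5.63 to 6.88 in controls and from 5.84 to 7.04 with PIO, a difference of 0.16 (SE 0.17). This became 0.058 without control animal 7, 0.079 without PIO animal 11, 0.24 without control animal 3 and 0.25 without PIO animal 9. A probe set of Ifi35 without shared sequence gave 0.016 (SE 0.050). Trim25, a ubiquitin ligase of the RIG-I pathway, differed by 0.060 (SE 0.11), by 0.0058 without PIO animal 12 and by 0.12 without PIO animal 9. Another Trim25 probe set above the filter gave -0.30 (SE 0.23). Ifi27 differed by 0.0065 (SE 0.12).

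The animals within a diet group differed more in these genes than in most genes of like level. The SD within diet groups had a median of 0.207 over the 24 members and 0.130 over all genes. Against 500 genes of like level, the members' SD lay at a median percentile of 74.2, with 19 of 24 above the 50th and 6 above the 90th. Those 6 were H2-K1, H2-D1, B2m, Ifitm2, Ifitm3 and Ifi27, with Ifitm3 at the 99.0th and Ifitm2 at the 97.6th. The level of Ifitm3 spanned 1.58 and that of Ifitm2 1.66 log2 units over the 16 animals. The SD was larger in the PIO group for 16 of 24 members (66.7%), where 59.0% of all genes had a larger SD there.

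The animals at the ends were largely the same from gene to gene. Averaged over the 24 members, the deviation from the 16-array mean ran from -0.19 to 0.22 in controls and from -0.26 to 0.17 with PIO, and the group means were 0.018 ± 0.15 and -0.018 ± 0.16 (SD, n = 8 each). PIO animals 10 and 9 were lowest (-0.26 and -0.24), followed by control animals 5 and 7 (-0.19 and -0.17). Control animal 3, PIO animal 11 and control animal 8 were highest (0.22, 0.17 and 0.16), and each was the highest of 16 animals for 5 members. PIO animal 10 was the lowest of 16 for 10 members and PIO animal 9 for 5. The same tally was not made over all genes. PIO animals 9 and 10 were also the only PIO animals with array numbers from 1 to 6, a range shared with control animals 1 to 4. What goes with these animals and what goes with the array number range cannot be told apart in the PIO group. High and low animals occurred on both diets.

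**Figure D3:**
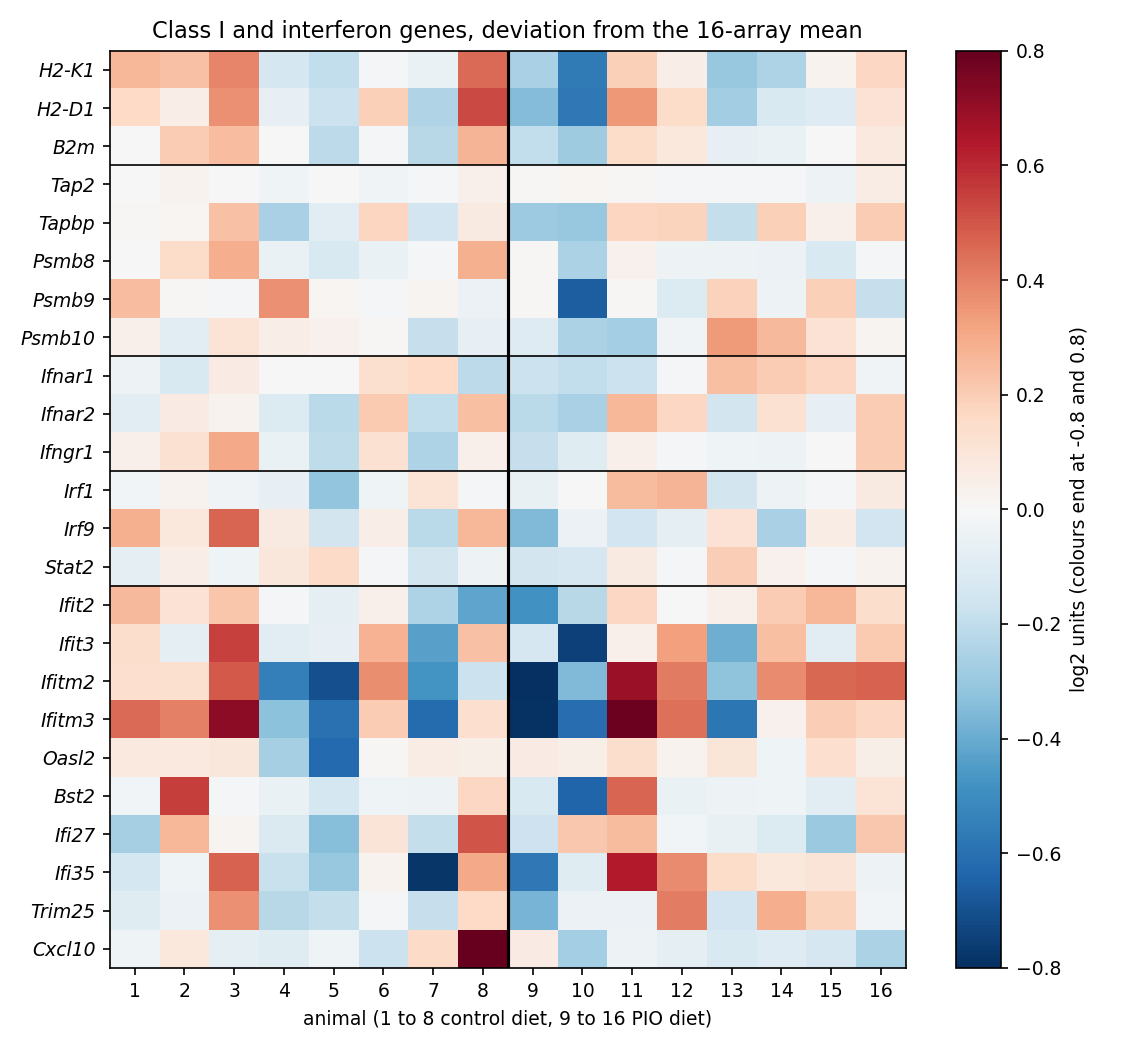
Deviation of each of the 24 members (rows) from its 16-array mean in each animal (columns; 1 to 8 control diet, 9 to 16 PIO diet), in log2 units with colours ending at -0.8 and 0.8. Control animals 3 and 8 and PIO animal 11 are high across most rows, and control animals 5 and 7 and PIO animals 9 and 10 are low, with Ifitm2 and Ifitm3 showing the strongest contrast.

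Markers of leptomeninges and fibroblasts, the cells of the brain's coverings, were compared by animal after the members' spread was seen. All 10 of 10 lay above the filter, 8 with a higher mean with PIO, and their summed level ran from 66.4 to 89.7 in controls and from 67.0 to 91.9 with PIO. Their defining markers were present in every animal, Dcn from 10.40 to 11.87 and Lum from 6.53 to 8.09. The 6 animals with the lowest list mean were control animals 4, 5 and 7 and PIO animals 9, 10 and 13. These were also the 6 lowest animals for Ifitm2, Ifitm3, Tapbp and Ifnar2, and 5 of them were among the 6 lowest for H2-K1, H2-D1, B2m, Ifngr1, Ifit2, Ifit3, Ifi35 and Trim25. The other 12 members shared 1 to 4 animals with that set, down to 2 for Ifnar1, Oasl2 and Cxcl10 and 1 for Psmb9. The 6 animals of lowest choroid plexus mean overlapped with the members' lowest in a similar way. All 6 were shared by Trim25 and 5 by Tapbp, Ifnar2, Ifitm2, Ifitm3, Ifi27 and Ifi35. The median over 24 members was 4, against 4.5 for the leptomeningeal list. The overlap of other genes' lowest animals with either set was not counted, so whether that of the members is unusual was not tested.

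With the leptomeningeal mean as a covariate, a setting chosen after seeing the data, the SE of the diet difference went from 0.25 to 0.089 for Ifitm3, from 0.24 to 0.080 for Ifitm2 and from 0.093 to 0.046 for Tapbp. It was smaller for 18 of 24 members. The median ratio of SE with to without the covariate was 0.837 over members and 1.02 over all genes. The differences were then -0.27 for H2-K1, -0.25 for H2-D1, -0.13 for Psmb8, -0.23 for Irf9 and -0.20 for Ifitm3. These 5 of 24 had an unadjusted p under 0.05, where 6.59% of all genes did in the same fit, and none passed after adjustment, the smallest limma adjusted p being 0.649.

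**Figure D4:**
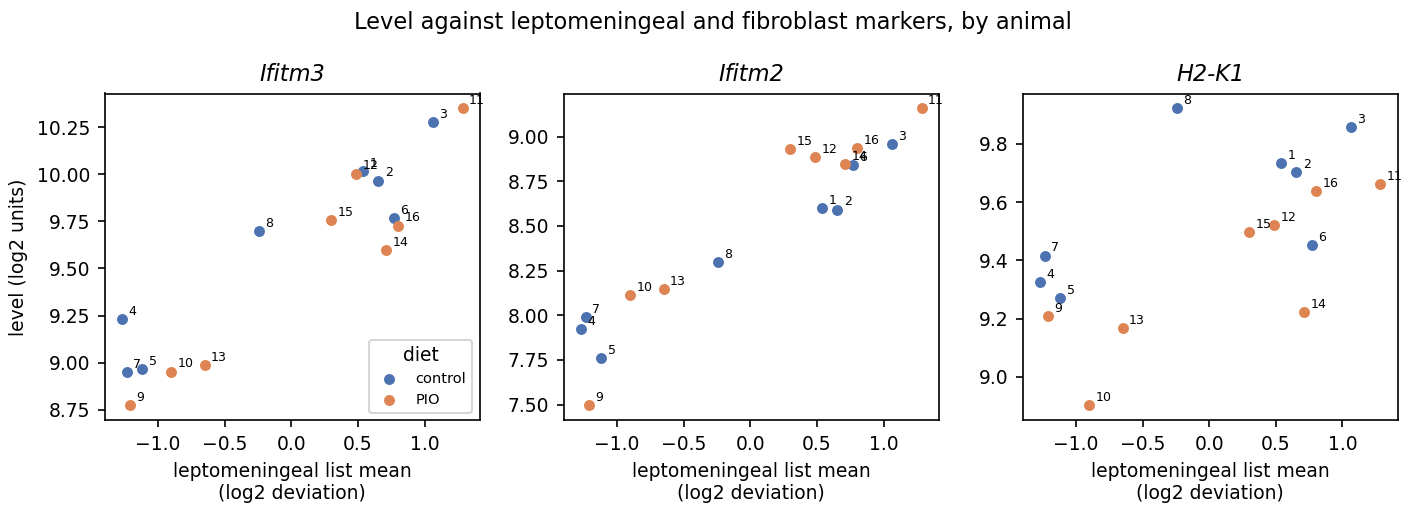
Level of Ifitm3, Ifitm2 and H2-K1 (log2 units, vertical) against the mean deviation of 10 leptomeningeal and fibroblast markers (log2 units, horizontal), with each animal numbered and coloured by diet. For Ifitm3 and Ifitm2 the 6 animals of lowest marker mean hold the 6 lowest levels, from both diets.

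Markers of other cell types were set beside the members in the same way. Markers of perivascular macrophages, 4 of 8 above the filter, ran from -0.71 to 0.68 in controls and from -0.94 to 0.89 with PIO as a list mean. With them as a covariate 18 members had a smaller SE and the median ratio was 0.868, against 1.01 over all genes; 3 members (H2-K1, H2-D1 and Irf9) had an unadjusted p under 0.05, against 7.17% of genes. Their defining marker Mrc1 ran from 4.31 to 7.39, and Cd163 was at most 3.65. Choroid plexus markers, all 15 with a higher mean with PIO, had a median difference of 1.09 (median SE 1.04). As a list mean they ranged from -2.75 to 2.13 in controls and from -2.92 to 2.24 with PIO. That covariate gave a ratio of 0.941 against 1.04, and 4 members (H2-K1, H2-D1, Psmb8 and Irf9) had an unadjusted p under 0.05, against 6.74% of genes. PIO animals 9 and 10 had the lowest endothelial means, -0.61 and -0.58, with all controls between -0.14 and 0.30. As a covariate that mean gave a ratio of 0.945 against 1.03, and 1 member (Ifitm2) had an unadjusted p under 0.05, against 11.1% of genes.

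The IFITM genes show how far the choice of covariate moved a difference. Ifitm2 differed by 0.39 (SE 0.16; limma adjusted p = 0.400) with the endothelial mean, by 0.15 with the perivascular, 0.086 with the leptomeningeal and 0.023 with the choroid plexus mean. Ifitm3 differed by 0.071 with the endothelial, -0.13 with the perivascular, -0.20 with the leptomeningeal and -0.26 with the choroid plexus mean. The sign of the Ifitm3 difference thus depended on the covariate. The microglial mean gave a ratio of 1.13 against 1.14 and the striatal mean 1.12 against 1.10, and with either 0 members had an unadjusted p under 0.05, against 4.79% and 4.21% of genes. Neutrophil markers S100a8 and S100a9 reached 8.26 and 6.81 in the PIO group but lay below the filter on average. The part of these cell types in the members' values was not tested further.

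Other genes of the pathways showed no passing difference either. Of 71 further interferon-stimulated genes listed 33 lay above the filter, 22 with a lower and 11 with a higher mean with PIO, and a median difference of -0.040. A lower mean was found for 47.3% of all genes, and whether this list departs from that share was not tested. Gbp7, a guanylate-binding protein, lay at 7.30, 7.43 and 7.87 in controls and at 7.05, 7.18 and 7.44 with PIO, a difference of -0.27 (SE 0.085; limma adjusted p = 0.605). Xaf1 differed by -0.083 (SE 0.037), Irgm1 by -0.16 (SE 0.083) and Lgals9 by -0.20 (SE 0.10). Only Gbp7 and Xaf1 had an unadjusted p under 0.05, 2 of 33, where 7.00% of all genes did. The highest animal mean of this list was again that of control animal 3, at 0.33.

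Of 24 sensing and signalling genes 17 lay above the filter, 9 with a lower and 8 with a higher mean, and the smallest p belonged to Tlr3 (-0.16, SE 0.076), a receptor of double-stranded RNA. Sting1, the adaptor of cytosolic DNA sensing, differed by -0.20 (SE 0.11), Ptpn6 by -0.22 and Irf2 by 0.20. Of 25 other class I pathway genes 12 lay above the filter, 5 with a lower and 7 with a higher mean. Tapbpl, a tapasin-related peptide editor, ran from 4.81 to 5.12 in controls and from 4.86 to 5.84 with PIO, a difference of 0.27 (SE 0.13; limma adjusted p = 0.712). It was the 1 gene of those 12 with an unadjusted p under 0.05, where 7.00% of all genes did.

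MHC class II genes, which present peptides from outside the cell, spread widely between animals. Of the 10 listed 6 lay above the filter, with a median difference of 0.37 and a median SE of 0.45. Cd74, the invariant chain, lay at 4.11, 6.95 and 7.48 in controls and at 4.59, 7.19 and 8.77 with PIO, a difference of 0.50 (SE 0.66). H2-Eb1 differed by 0.46 (SE 0.51) and H2-Ab1 by 0.33 (SE 0.39). The class II list mean was highest in PIO animals 11 and 12, at 1.67 and 1.04, and PIO animal 11 was also the animal of highest Ifitm2, Ifitm3, Ifnar2 and Ifi35.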

How the data were processed

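Total RNA from the hippocampus of 16 mice was hybridised to Affymetrix arrays, 1 per animal. The authors deposited log2 values, a scale judged from their range. The submitters' processing notes name MAS5, GCRMA and R 2.7.1 with no role, and the sources used here do not say which made the values. A background model such as that of GCRMA holds unexpressed probe sets in a narrow low band and can widen differences just above it. No genome build is given for the arrays. Of 45101 probe sets 64 controls were left out; of the rest 34945 had 1 gene symbol, 932 several and 9160 none in the platform annotation. The values were used without further normalization.

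Each gene was read from its single-symbol probe set of highest mean, kept above the 40th percentile (3.58). Diet groups were compared in limma 3.58.1 (lmFit, eBayes; R 4.3.3) without covariates, and p-values were adjusted by Benjamini-Hochberg over 12266 genes. The scripts were tested on simulated data. Each animal is a separately numbered subject, per the labels. The array description ends in a code (5 control and 6 PIO, 2 and 1, and 1 and 1 arrays) and starts with a number (1 to 6 in 4 control and 2 PIO arrays, 10 to 24 in the others), both of unstated meaning.

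The members and the gene lists were chosen with earlier results of these data known. Named genes are all members, up to 4 genes of smallest p per further pathway list, and for each marker list its first 2 genes and up to 2 of smallest p. Promoters came from a RefSeq table of GRCm38.p6, used for sequence only. Alternatives covered the filter, probe sets, normalization, array code and number, marker means as covariates, the prior, array weights and each animal left out.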

Additional observations from a re-analysis of the deposited data

Results flagged for a closer look

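In 7 cases 1 animal stood apart from the other 7 of its diet group, by the ratio of its gap from the nearest animal to the group's whole range (Dixon's test). Chance flags about 1 in 20 groups, and a gene was counted if either of its diet groups was flagged, so the chance rate per gene is higher. By that count 4 of the 24 members above the filter (16.7%) had such an animal, where 17.1% of all genes did. Cxcl10 in control animal 8 was at 5.40 against 4.46 in the next animal (ratio 0.742). Irf1 in control animal 5 was at 6.86 against 7.11 (ratio 0.592), Bst2 in control animal 2 at 5.16 against 4.77 (ratio 0.562) and Psmb9 in PIO animal 10 at 2.97 against 3.44 (ratio 0.553). The other cases were of genes below the filter: Ifit1 in PIO animal 12 at 3.08 against 1.81 (ratio 0.964), Usp18 in PIO animal 10 at 3.19 against 2.47 (ratio 0.785) and Oas1a in PIO animal 12 at 2.38 against 2.06 (ratio 0.782).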

How the results depend on the processing

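Under 35 other settings, 31 planned and 4 chosen after seeing the data (the leptomeningeal, perivascular macrophage and endothelial means as covariates, and PIO animals 14 and 15 left out together), 0 members and 0 genes passed the adjusted threshold, and the smallest limma adjusted p of a member was 0.400, for Ifitm2 with the endothelial mean as a covariate; with 1 animal left out it was 0.508, for Irf9 without PIO animal 10. The median member difference ran from -0.11 in the largest array code alone to 0.074 in arrays 10 to 24 alone, and from -0.028 to 0.022 with 1 animal left out. H2-K1, H2-D1, Psmb8, Irf1, Irf9, Oasl2, Ifi35 and Cxcl10 kept the sign of their difference in every setting run, and the other 16 members changed it in some setting, in 105 of 805 member values over all members. No such value passed the threshold, and the cause was not tested. The setting with every probe set on its own gives several values for some genes and is not in that count. In it a further probe set above the filter had the opposite sign for Ifnar1 (-0.11), Stat2 (-0.0047) and Trim25 (-0.30). The values of opposite sign in the other settings follow. After quantile normalization they were Tap2 -0.027, Ifnar1 -0.011, Stat2 -0.0095 and Ifi27 -0.00022. At a common array median they were Tap2 -0.031, Psmb10 -0.011, Ifnar1 -0.028, Ifnar2 -0.015, Stat2 -0.026, Ifit2 -0.0049 and Ifi27 -0.026. With the array code as a block they were Tap2 -0.0028 and Ifi27 -0.018. In the largest array code alone they were Tap2 -0.0036, Psmb10 -0.031, Ifnar1 -0.027, Ifnar2 -0.011, Stat2 -0.013, Ifit2 -0.16 and Ifitm2 -0.11. With the array number range as a block they were Ifnar1 -0.029, Ifnar2 -0.023 and Stat2 -0.011. In arrays 10 to 24 alone they were B2m 0.074, Tap2 -0.0032, Tapbp 0.097, Psmb9 0.012, Ifngr1 0.099, Ifit3 0.055, Ifitm3 0.39, Bst2 0.073 and Ifi27 -0.021. With the choroid plexus and ependyma mean as a covariate they were Tap2 -0.0048, Ifnar2 -0.057, Ifi27 -0.087 and Trim25 -0.0072. With the microglia mean as a covariate they were B2m 0.018, Ifnar1 -0.035, Ifngr1 0.0078, Ifit2 -0.00080 and Ifitm3 0.050. With the striatal neurons mean as a covariate they were Psmb10 -0.026, Ifnar1 -0.081, Ifit2 -0.063 and Trim25 -0.014. With array weights they were Ifnar1 -0.0026 and Ifit2 -0.022. With the leptomeninges and fibroblasts mean as a covariate they were Tap2 -0.00032, Ifnar2 -0.016, Ifit2 -0.010 and Ifi27 -0.012. With the brain endothelium mean as a covariate they were Tap2 -0.0040, Tapbp 0.071, Ifngr1 0.0032, Ifitm3 0.071 and Ifi27 -0.0073. Without PIO animals 14 and 15 they were Psmb10 -0.038, Ifnar1 -0.056, Ifit2 -0.046 and Trim25 -0.0088. With 1 animal left out, the members whose sign changed ranged as follows: Tap2 -0.0078 to 0.0068, Tapbp -0.039 to 0.042, Psmb10 -0.026 to 0.061, Ifnar1 -0.029 to 0.033, Ifnar2 -0.020 to 0.055, Ifngr1 -0.069 to 0.0097, Stat2 -0.021 to 0.029, Ifit2 -0.031 to 0.098, Ifitm3 -0.21 to 0.016 and Ifi27 -0.042 to 0.079. No paired analysis was possible because the subject numbers of the diet groups (1 to 8 and 9 to 16) are not shared. The SE of the differences limits what these 16 arrays show, and low probe sets near the background band carry little information on change.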
